A study of Mus musculus with 6 samples.

Results

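Transcripts of 10 genes of platelet-derived growth factor (PDGF) and fibroblast growth factor (FGF) signalling were examined in bulk RNA-seq of whole mouse thoracic aorta. The genes were the 4 PDGF chains Pdgfa, Pdgfb, Pdgfc and Pdgfd, the PDGF receptors Pdgfra and Pdgfrb, the growth factors Fgf1 and Fgf2, and the FGF receptors Fgfr1 and Fgfr2. They were chosen by name and found by Ensembl identifier among the 52636 genes of the count table. Every gene of the 10 had at least 176 counts in each library and received an adjusted p-value.

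The 4 WT libraries came from untreated C57BL/6J mice, and the 2 KO libraries from mice that the study names Tgfbr1/2iSMCKO. The genotype of the latter is Tgfbr1f/f and Tgfbr2f/f with the transgenes Myh11-CreERT2 and mT/mG, on the C57BL/6J strain per the labels. In the KO animals both TGF-β receptor genes are flanked by loxP sites, Cre recombinase is expressed under the promoter of the smooth muscle myosin gene Myh11 and is active only with tamoxifen, and mT/mG is a fluorescent reporter of recombination. Receptor genes of endothelial cells, adventitial fibroblasts and leukocytes are therefore not targeted. Tamoxifen was injected i.p. at 2 mg per day for 5 days at 11 weeks, and all aortas were taken at 12 weeks of age. C57BL/6J mice carry neither the floxed alleles nor the Cre or reporter transgenes, and the WT mice were not given tamoxifen, so receptor loss, transgenes and drug cannot be told apart as sources of a difference between the groups. The labels do not say whether a library is 1 mouse or a pool, and p-values measure only the spread between these libraries. They are called WT-a to WT-d and KO-a and KO-b here, because the columns of the table carry codes, and their groups were inferred from the codes.

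PDGFs are dimers of disulfide-linked chains that cells of the vessel wall release onto their neighbours, where they bind the receptor tyrosine kinases PDGFRα and PDGFRβ and stimulate growth and migration. In blood vessels, PDGF-B from endothelium acts on PDGFRβ of smooth muscle cells (SMCs) and pericytes, and PDGFRα is mainly a receptor of fibroblasts. FGF1 and FGF2 lack a classical secretion signal, bind heparan sulfate at the cell surface, and activate FGF receptors, which signal through Ras-MAPK and PI3K as PDGF receptors do.

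Total counts ran from 19650983 (KO-b) to 28860598 (KO-a), and the 10 genes together took between 0.136% and 0.169% of a library. Mitochondrial genes held 2.62% to 4.44% of the counts in the WT libraries, 3.38% in KO-a and 11.7% in KO-b. Counts of the whole gene do not test the label, since a floxed allele loses only the stretch between its loxP sites and other cells keep it: Tgfbr1 had an adjusted p of 0.63 and Tgfbr2 of 0.838 (DESeq2). Of 12 cell type marker lists, no tested marker fell in DESeq2 or edgeR. At an unadjusted p under 0.05 in DESeq2, 3 smooth muscle markers and 1 pericyte marker were lower. Markers rose in 9 lists in DESeq2, where 5.71% of all tested genes passed with a higher level. They were 4 of 6 endothelial, 5 of 6 macrophage, 5 of 5 mesothelial, 3 of 4 brown and 2 of 5 white adipocyte. The rest were 4 of 6 cardiac, 4 of 4 red blood cell, 2 of 6 fibroblast and 1 of 4 pericyte. In edgeR the numbers were 3 endothelial, 3 macrophage, 3 mesothelial, 2 brown and 0 white adipocyte. For cardiac, red blood cell, fibroblast and pericyte markers edgeR gave 3, 4, 1 and 0. No smooth muscle, lymphocyte or Schwann cell marker passed in DESeq2 or edgeR, with 4, 2 and 1 of them at an unadjusted p under 0.05, either way, in DESeq2. The KO libraries stood apart from each other as well. Summed cardiac markers were 19.5-fold the WT mean in KO-a and 2.20-fold in KO-b, whereas summed brown adipocyte markers were 1.47-fold in KO-a and 23.2-fold in KO-b. Where leaving out a library moved any of the 10 genes across the test's threshold, or ended the call of a pathway gene named here, that library and the value without it are given.

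To learn how PDGF and FGF transcripts differed soon after deletion of the TGF-β receptors in SMCs, KO was compared with WT in a single DESeq2 fit over all genes. Pdgfa, Pdgfb, Pdgfc and Pdgfrb fell, all of them in the PDGF family, and none of the 10 genes rose. The largest fall was that of Pdgfb, to 0.394 of its WT level. The 4 that passed (adjusted p under 0.05) stand against 4.69% of the 17070 tested genes that passed with a lower level in KO, 5.71% with a higher level and 10.4% in either direction. Pdgfb was also called, which here means passing with a change above 2-fold, as were 2.1% of tested genes on the lower side and 3.54% on the higher side. Of the PDGF genes, only Pdgfb also passed in edgeR and limma-voom. PDGF genes at an unadjusted p under 0.05 numbered 5 in DESeq2 and 4 in each of the others. None of the 4 FGF genes passed in DESeq2, edgeR or limma-voom. At an unadjusted p under 0.05 their number was 0 in DESeq2 and 1 in each of the others. Both KO libraries lay below every WT library for 4 of the 10 genes (16.4% of tested genes) and above every WT library for 1 (17.9%). The median log2 fold change of the 10 genes was -0.29, beside 0.01 for all tested genes. In bulk tissue, fewer cells of a type and less RNA per cell cannot be told apart.

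**Figure D1:**
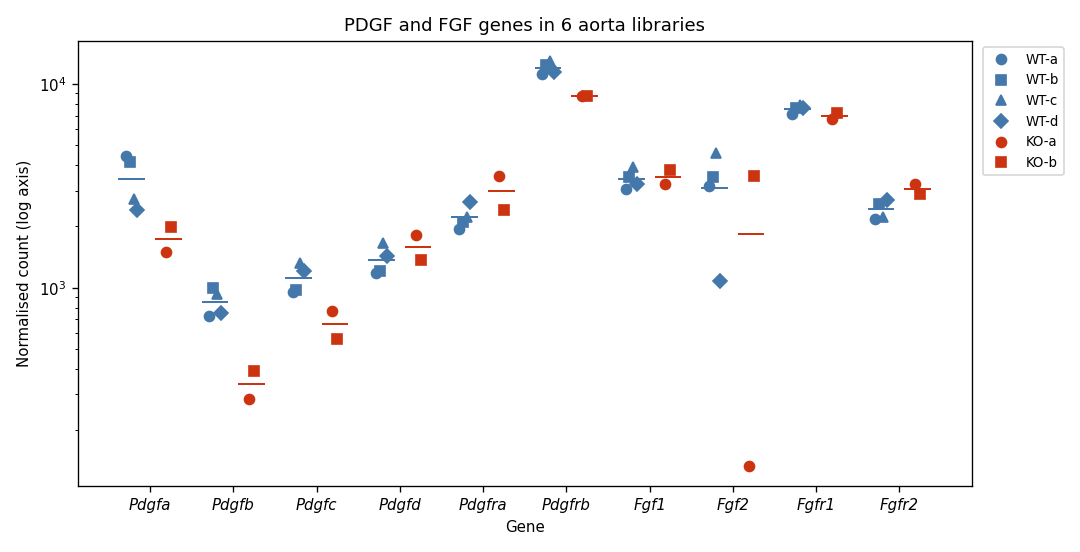
Normalised counts (counts divided by DESeq2 size factors, log axis) of the 10 genes in each library, with blue symbols for the 4 WT and red symbols for the 2 KO libraries and a bar at the mean of each group. KO symbols lie below all WT symbols for Pdgfa, Pdgfb, Pdgfc and Pdgfrb and above them for Fgfr2, and Fgf2 spreads from 133.5 to 4587 with a KO library at either side of WT-d.

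Among the ligands, Pdgfb encodes the B chain, which binds both PDGF receptors. The gene lies on chromosome 15 (GRCm38, 79995874 to 80014977, minus strand). Its normalised counts were 725, 993, 929 and 756 in WT-a to WT-d, and 284 and 389.6 in KO-a and KO-b. Both KO values were below the lowest WT value, and the groups did not overlap. This was a log2 fold change of -1.34 ± 0.23 (SE) with an adjusted p of 7.14e-07 in DESeq2. Pdgfb passed in 14 of 15 alternative fits, including edgeR, limma-voom and each fit with 1 library left out, with log2 fold changes between -1.57 and -1.12. It did not pass the test against a 2-fold change, where its adjusted p was 1. Markers of the endothelium, the main source of PDGF-B in vessels, moved the other way. Summed endothelial markers were 11030.3 to 20190.8 normalised counts in WT and 29272 and 28624 in KO, and Cdh5, Vwf, Tie1 and Kdr rose by 1.47, 1.25, 0.54 and 3.18 on the log2 scale. No endothelial marker was at 0 in any library. The part of these markers in the result was not tested.

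Pdgfa encodes the A chain, which signals through PDGFRα. It lies on chromosome 5 (138976014 to 138997370, minus strand). Normalised counts were 4441, 4126.5, 2728 and 2407 in WT-a to WT-d and 1496 and 1979 in KO-a and KO-b. WT-a and WT-b were well above WT-c and WT-d, and both KO libraries were below all 4. Pdgfa fell by 0.98 ± 0.27 on the log2 scale, to 0.507 of its WT level, with an adjusted p of 0.00502 in DESeq2. The call did not hold without WT-b (adjusted p 0.0519) or without KO-a (0.107), nor in edgeR (0.083) or limma-voom (0.0863). An antisense gene, 6330403L08Rik, covers 26.1% of the exon bases of Pdgfa, and whether counting used strand is not given in the sources used here. Reads from this stretch can belong to either gene. Normalised counts of 6330403L08Rik were between 1035 and 1379 in the 6 libraries, with an adjusted p of 0.748.

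The C and D chains, encoded by Pdgfc and Pdgfd, are released in latent form and become active when a protease removes their CUB domain. PDGF-C acts mainly on PDGFRα and PDGF-D on PDGFRβ. Pdgfc on chromosome 3 (81036416 to 81214040, plus strand) had normalised counts of 949, 979.8, 1325 and 1207 in WT and 766 and 558 in KO. The groups did not overlap, with KO-b farthest from WT. Pdgfc fell by 0.75 ± 0.23 on the log2 scale, with an adjusted p of 0.0139 in DESeq2. This call was lost without KO-b (adjusted p 0.243), without WT-c (0.0567) or WT-d (0.0565), and in edgeR (0.069) and limma-voom (0.0702). An antisense gene, Gm16000, covers 2.9% of its exon bases.

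Pdgfd on chromosome 9 (6168584 to 6378850, plus strand) had 1185, 1208, 1652 and 1428 normalised counts in WT and 1819 and 1369 in KO. KO-a was above and KO-b within the WT range. Its change was 0.22 ± 0.21 on the log2 scale, with a 95% interval from -0.20 to 0.64 and an adjusted p of 0.609 in DESeq2. It did not pass in any of the 15 alternative fits.

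Pdgfc and Pdgfd are shown here as a pair of like ligands of which only Pdgfc passed the test, and the difference between their changes was not tested. The sequences are the 250 bases before the transcription start in RefSeq (GRCm38.p6), chr3:81036166-81036415 for Pdgfc and chr9:6168236-6168485 for Pdgfd, both on the plus strand. Capitals mark matches, on either strand, to the SMAD box CAGAC, letters that the TGF-β mediators SMAD3 and SMAD4 bind, and to the CArG box of serum response factor.
Pdgfc: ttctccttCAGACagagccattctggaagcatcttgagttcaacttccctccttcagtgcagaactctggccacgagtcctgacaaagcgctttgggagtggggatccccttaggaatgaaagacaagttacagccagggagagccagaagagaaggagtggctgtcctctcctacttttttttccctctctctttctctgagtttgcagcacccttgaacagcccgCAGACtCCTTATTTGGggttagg
Pdgfd: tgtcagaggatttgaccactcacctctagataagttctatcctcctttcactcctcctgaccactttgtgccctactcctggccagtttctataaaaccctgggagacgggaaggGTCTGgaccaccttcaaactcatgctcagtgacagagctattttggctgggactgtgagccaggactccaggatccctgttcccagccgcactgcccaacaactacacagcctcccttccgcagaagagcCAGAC
The SMAD box occurred 2 times in each window, at -242 and -23 before Pdgfc and at -135 and -5 before Pdgfd, and the CArG box occurred at -17 before Pdgfc. Of the 32851 RefSeq promoter windows of this length that were searched, 42.2% held a SMAD box and 1.47% a CArG box. A GC box (GGGCGG) was present in 32.7% of all windows and an EGR site (GCGGGGGCG) in 2.57%. Windows of 6 of the 10 genes were searched, 7 windows in all. Pdgfb, Pdgfrb, Fgf1 and Fgfr1 were not searched, which does not mean that they lack a promoter window. A SMAD box was also present before Fgf2 (at -205) and Pdgfra (at -146), genes that did not pass. Neither window of Pdgfa, which passed, held one, nor did that of Fgfr2, which did not pass. Both windows of Pdgfa held a GC box, and Fgf2 held a GC box that overlapped an EGR site. GC content was 50.8% and 53.6% before Pdgfc and Pdgfd, 66.4% and 72.4% before the starts of Pdgfa, and 52.4% at the median of all windows.

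Pdgfrb encodes PDGFRβ, the receptor of SMCs and pericytes, and lies on chromosome 18 (61045150 to 61085061, plus strand). Its normalised counts were 11162, 12464, 13002 and 11417 in WT and 8733 and 8755 in KO. The KO libraries were close to each other, and both were below the lowest WT library. Pdgfrb fell by 0.46 ± 0.15 on the log2 scale, to 0.728 of its WT level, with an adjusted p of 0.0285 in DESeq2. It passed in 6 of 15 alternatives. The call was lost without WT-b (adjusted p 0.0789), WT-c (0.0509) or KO-b (0.0824), with total counts as scaling (0.0916), in edgeR (0.0568) and in limma-voom (0.051), while the log2 fold change stayed between -0.49 and -0.42. Summed smooth muscle markers were 878299 to 1037957 in WT and 832799 and 992571 in KO. Single markers differed in direction, and none passed. Both KO libraries were below every WT library for Tagln, Cnn1 and Smtn (log2 fold changes -0.41, -0.38 and -0.30). They were above every WT library for Myh11 (0.36), and Acta2 and Lmod1 overlapped. Pericyte markers summed to 40663 to 52829.9 in WT and 34238 and 50329 in KO, where Abcc9 rose by 0.66 and Rgs5, at a log2 fold change of -0.66, had an adjusted p of 0.0771. The pericyte marker Higd1b was at 0 in all WT libraries. The part of these cell types in the change of Pdgfrb was not tested.

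Pdgfra encodes PDGFRα and lies on chromosome 5 (75152292 to 75198215, plus strand). It had 1935, 2095, 2222 and 2645 normalised counts in WT and 3543.5 and 2421.5 in KO. KO-a was above every WT library and KO-b lay below WT-d. DESeq2 gave a log2 fold change of 0.42 ± 0.21, with a 95% interval from 0.0039 to 0.84 before adjustment and an adjusted p of 0.22. Without KO-b it was 0.68 and passed (adjusted p 0.0363), a fit in which KO-a alone stands for its group, and without KO-a it was 0.12 (0.782). Fibroblast markers other than Pdgfra summed to 111278 to 123902 in WT and to 139655 and 164948 in KO, with Lum and Dpt past the test. Their sum was higher in KO-b than in KO-a, as was its largest part, Col1a1 (109539 in KO-b and 81716 in KO-a). Dcn (30230 in KO-a and 29955 in KO-b), Lum (5433 and 5035), Pi16 (9435 and 8775), Dpt (6975.5 and 6631) and Serpinf1 (5866 and 5012.5) were higher in KO-a. This is the same order as Pdgfra, but each gap was smaller in proportion than that of Pdgfra. The part of fibroblasts in the Pdgfra value was not tested. Antisense and unclassified genes, Gm42802 and Gm42803, cover 4.5% and 1.7% of its exon bases, and the microRNA gene Mir7025 covers 0.3%.

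**Figure D2:**
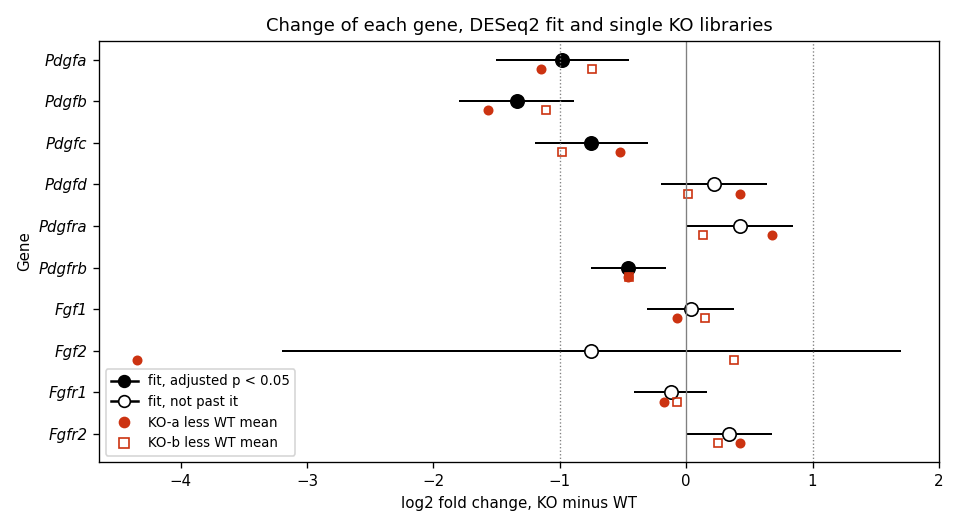
Log2 fold change of KO against WT from DESeq2 (circles, filled where adjusted p is under 0.05, with 95% intervals) and each KO library less the WT mean (red symbols). Dotted lines mark 2-fold. Both red symbols lie left of 0 for Pdgfa, Pdgfb, Pdgfc, Pdgfrb and Fgfr1, and those of Fgf2 lie at -4.34 and 0.38.

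Fgf2 encodes basic FGF, a mitogen of SMCs and endothelial cells, and lies on chromosome 3 (37348346 to 37410108, plus strand). Its normalised counts were 3170.0, 3509, 4587 and 1075.5 in WT-a to WT-d and 133.5 and 3537.5 in KO-a and KO-b. KO-a was far below all other libraries, WT-d was the lowest of its group, and KO-b lay within the WT range. Its log2 fold change was -0.75 ± 1.25, with a 95% interval from -3.20 to 1.70 and an adjusted p of 0.798 in DESeq2. A single KO library decided both its size and its direction, with -4.52 (adjusted p 3.1e-05) without KO-b and 0.20 (0.921) without KO-a. KO-a is the library with 19.5-fold cardiac markers, and the part of this in the low Fgf2 count was not tested. Nudt6, which runs on the opposite strand and covers 9.4% of the exon bases of Fgf2, had between 65.2 and 128 normalised counts and an adjusted p of 0.344. On the same strand Gm43439 covers 3.8%.

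Fgf1, which encodes acidic FGF, a ligand of all FGF receptors, lies on chromosome 18 (38838673 to 38929472, minus strand). It had 3055, 3502, 3924.5 and 3241 normalised counts in WT and 3244.5 and 3792 in KO. Both KO libraries lay within the WT range. The log2 fold change was 0.04 ± 0.18, with a 95% interval from -0.31 to 0.38 and an adjusted p of 0.936 in DESeq2. Its sign changed when WT-a (-0.0157) or KO-b (-0.0694) was left out.

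Fgfr1 and Fgfr2 encode receptor tyrosine kinases for FGFs. Fgfr1 on chromosome 8 (25513654 to 25575718, plus strand) had 7107, 7636, 7862 and 7659 normalised counts in WT and 6703 and 7188 in KO, and KO-b lay within the WT range. The log2 fold change was -0.12 ± 0.15, with a 95% interval from -0.41 to 0.16 and an adjusted p of 0.693 in DESeq2. Fgfr2 on chromosome 7 had 2178, 2583, 2238 and 2698 in WT and 3245 and 2881 in KO, both above the highest WT library. Its log2 fold change was 0.34 ± 0.17, with a 95% interval from -0.0038 to 0.68 and an adjusted p of 0.233, and it did not pass in any alternative fit. The Fgfr2 model in GENCODE M21 extends from 130162451 to 133123350 and shares 3.0% of its exon bases with Ctbp2, so its length is uncertain. Gm16159 covers 1.7% of the exon bases of Fgfr1 on the opposite strand.

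Levels of different genes were compared as normalised counts per kilobase of merged exons. In the WT libraries Pdgfrb had the highest level, 2193 ± 158.5 (SD, n = 4), and did not overlap with Pdgfa at 1098 ± 323. Fgfr1 followed at 766 ± 32.7, and its range overlapped with those of its neighbour above, Pdgfa, but not with that of Fgf1 at 628 ± 69.0. The ranges of Fgf1, Fgf2 (455 ± 217) and Pdgfd (434 ± 69.3) overlapped from each to the next. Lower still were Fgfr2 (235 ± 24.7), Pdgfra (222 ± 30.3), Pdgfc (219 ± 35.6) and Pdgfb (204 ± 31.4), 4 genes whose ranges overlapped with one another in the same way. With the longest transcript as length, Fgfr2 moved from place 7 to place 5 of the 10 and the order was otherwise the same. In KO the mean levels were 1596 for Pdgfrb, 557 for Pdgfa, 130 for Pdgfc and 80.9 for Pdgfb.

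The share of each gene in the summed level per kilobase of its family does not depend on the scaling of a library. Pdgfa held 65.9%, 61.9%, 46.5% and 47.0% of the PDGF ligand level in WT-a to WT-d and 37.6% and 49.9% in KO-a and KO-b. The WT libraries fell into a higher and a lower pair, and KO-b lay between them. Pdgfd held 17.4% to 27.8% in WT, and 45.2% and 34.1% in KO, both above the WT range. Shares in a family are tied, so falls of the other ligands raise this share. The count of Pdgfd itself did not pass (log2 fold change 0.22, adjusted p 0.609 in DESeq2). The share of Pdgfb was 8.07% to 11.9% in WT and 5.35% and 7.36% in KO, both below that range. Pdgfc, at 8.63% to 14.4% in WT and 11.8% and 8.62% in KO, lay close to or within its range. Among PDGF receptors, Pdgfra held 8.41% to 11.2% in WT and 18.1% and 13.1% in KO. Fgf1 held 51.5% to 78.9% of the 2 FGF ligands in WT, 96.8% in KO-a and 57.1% in KO-b. Fgfr1 held 74.8% to 78.6% of the 2 FGF receptors in WT and 68.4% and 72.3% in KO. For Pdgfb, Pdgfd, Pdgfra and Fgfr1 the KO shares lay outside the WT range with either length, and these shares were not tested.

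**Figure D3:**
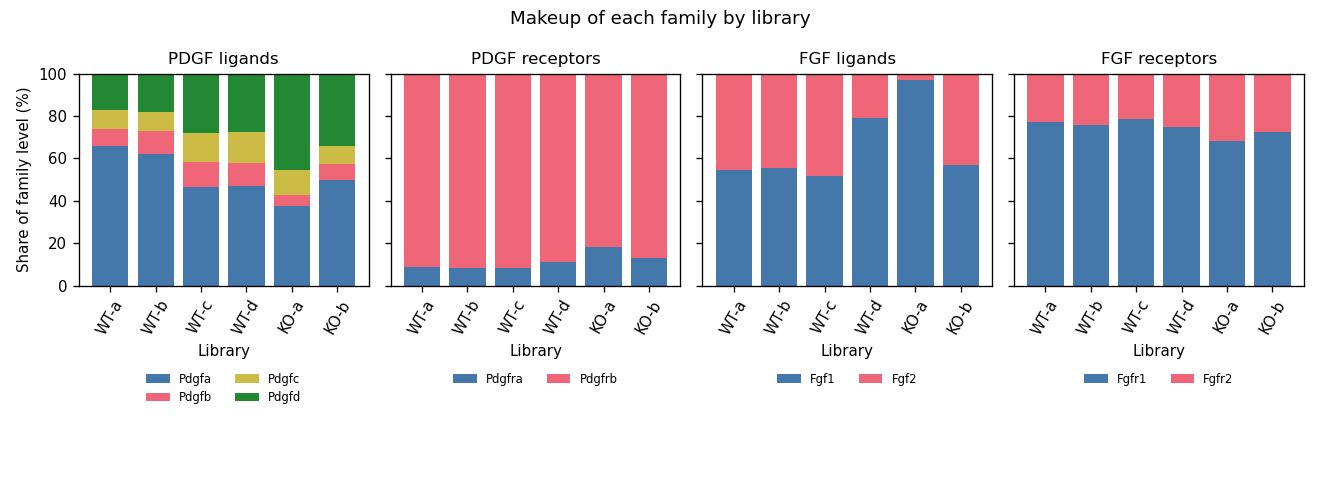
Share of each gene in the level per kilobase of its family (%), as stacked bars for the 4 WT and 2 KO libraries. The green part of the PDGF ligands, Pdgfd, reaches 45.2% in KO-a and 34.1% in KO-b, and Fgf2 shrinks to a thin band in KO-a.

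Other genes of the pathway were taken from 7 lists, grouped by role, that held 109 genes. Of these, 108 were in the table, 9 had 0 counts in all libraries and 97 were tested, and 12 rose and 7 fell. The 19 that passed were 19.6% of those tested, beside the 10.4% of all tested genes. Of the 97 tested, 6 were called higher and 3 called lower, beside 3.54% and 2.1% of all tested genes. The balance of rises and falls was not stable. It was 5 higher and 5 lower in edgeR, 4 higher and 5 lower in limma-voom, 7 higher and 5 lower without KO-b, and 9 higher and 14 lower without KO-a, so that the excess of rises turned when KO-a was left out. Without WT-a it was 9 and 9, and without WT-b 7 and 7. Each called gene is given here, or the gene with the smallest adjusted p where a list had none.

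Of 10 other FGF ligands tested, 2 rose and none fell, with a median log2 fold change of 0.64 (0 passed in edgeR and 1 in limma-voom, and at an unadjusted p under 0.05 in DESeq2 5 were higher and 0 lower). Fgf10, a mesenchymal ligand of FGFR2, had 12.1, 24.3, 19.0 and 33.4 normalised counts in WT and 69.0 and 75.0 in KO. Both KO values were above all of WT, at low counts. Its log2 fold change was 1.70 ± 0.54, with an adjusted p of 0.0209, which was 0.0516 without WT-b, 0.0521 without WT-c, 0.106 without KO-a, 0.191 without KO-b and 0.0537 in edgeR. Fgf12, an intracellular member of the family that regulates sodium channels, had 6.59, 6.29, 8.99 and 9.40 in WT, 134 in KO-a and 9.83 in KO-b. Its log2 fold change of 3.22 (adjusted p 0.00395) rested on KO-a, the library with the high cardiac markers, and was 0.33 without it. The part of cardiac tissue in this value was not tested.

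Of 12 further receptors and co-receptors, Nrp2 and Flrt1 rose and none fell (0 fell in edgeR and limma-voom as well, and 0 were lower at an unadjusted p under 0.05 in DESeq2). Nrp2 encodes neuropilin 2, a co-receptor of semaphorins and VEGF, and had 290.0, 303, 352.5 and 309 normalised counts in WT and 489 and 865 in KO. Flrt1, which encodes a membrane protein that binds FGF receptors, had 425, 426, 384.5 and 349.8 in WT and 583.5 and 1069 in KO. In both genes KO-b was the higher of the KO libraries. The log2 fold changes were 1.11 ± 0.26 for Nrp2 (adjusted p 0.000849) and 1.06 ± 0.27 for Flrt1 (0.00166). Without KO-b these were 0.65 (adjusted p 0.0892) and 0.57 (0.14), and in limma-voom the adjusted p-values were 0.0502 and 0.0653.

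Extracellular carriers and heparan sulfate partners fell in 4 cases and rose in 3 of 17, with a median of -0.26 and no called gene. Sparc, a matricellular protein that binds PDGF-B, had the smallest adjusted p. Its normalised counts were 124659, 131712, 115473 and 104757 in WT and 65978 and 73696 in KO, with no overlap. The log2 fold change was -0.77 ± 0.16 with an adjusted p of 0.000105, and it passed in 14 of 15 alternatives. Sdc4, Hspg2 and Ext1 fell by 0.64, 0.62 and 0.62. Sdc3, Gpc3 and Hs2st1 rose by 0.85, 0.78 and 0.60. Without KO-b, Sdc4 (adjusted p 0.0935) and Hspg2 (0.064) did not pass. Gpc3 did not pass without WT-a (0.0734), WT-b (0.105), KO-a (0.158) or KO-b (0.0777), nor Hs2st1 without WT-a (0.0532), WT-b (0.0801) or KO-a (0.12), and neither passed in edgeR. The calls of Sdc3 and Ext1 held with each library left out. The 6 genes encode the core proteins syndecan 4, perlecan, syndecan 3 and glypican 3, and enzymes that polymerise or sulfate the heparan sulfate chain.

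Among 8 proteases that process PDGF chains, 1 fell and 1 rose. Pcsk5, a proprotein convertase able to cleave PDGF precursors, had 1793, 1904, 1875 and 1558 normalised counts in WT and 896 and 771 in KO. Both KO libraries were far below WT. It fell by 1.10 ± 0.18, with an adjusted p of 1.12e-07, and passed in 14 of 15 alternatives. Pcsk6, a related convertase, rose by 0.90 (adjusted p 0.000484).

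Of 28 adaptors and kinases of the Ras-MAPK and PI3K arms, 1 fell and 1 rose, with a median of -0.04. These were 7.14% of the list, below the 10.4% of all tested genes that passed in either direction. Src, a tyrosine kinase recruited by PDGF receptors, had 672, 1723, 1688 and 1709 normalised counts in WT and 656 and 481.8 in KO. WT-a was close to the KO libraries and far from the other WT libraries. The log2 fold change was -1.35 ± 0.33, with an adjusted p of 0.00146, and the call was lost without KO-b (0.116), in edgeR (0.082) and in limma-voom (0.117). Pik3r1, the regulatory subunit of PI3K, rose by 0.85 (adjusted p 1.14e-05).

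Among 12 feedback inhibitors of receptor tyrosine kinases, Dusp4 and Spry1 rose and none fell, at a median of 0.28 (0 passed in edgeR and limma-voom, and 3 were higher and 1 lower at an unadjusted p under 0.05 in DESeq2). Dusp4, a MAP kinase phosphatase, had 23.1, 16.2, 29.96 and 10.4 normalised counts in WT and 43.2 and 88.5 in KO. Its log2 fold change of 1.72 ± 0.60 had an adjusted p of 0.044, which was 0.0778 without WT-a, 0.135 without WT-b, 0.0906 without WT-d, 0.5 without KO-b and 0.0849 in edgeR. Spry1, a Sprouty inhibitor of Ras-MAPK signalling, rose by 0.71 with an adjusted p of 0.0489, which ran from 0.0903 to 0.118 with any WT library left out, was 0.448 without KO-a and 0.0907 in edgeR. Among 10 transcriptional targets of the pathway, Myc rose and Ier3 fell, and the median was 0.22. Myc, a growth-promoting transcription factor, had 99.96, 110.5, 51.9 and 72.0 normalised counts in WT and 166 and 218 in KO. Ier3, an immediate early gene, had 1400.5, 972, 859.8 and 939 in WT and 389 and 639 in KO. Neither gene overlapped between the groups. The log2 fold changes were 1.195 ± 0.38 for Myc (adjusted p 0.0194) and -1.02 ± 0.27 for Ier3 (0.00343). Myc did not pass without WT-d (0.0629) or KO-b (0.273), Ier3 did not pass without KO-a (0.106), and neither passed in edgeR (0.0728 and 0.0684).

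**Figure D4:**
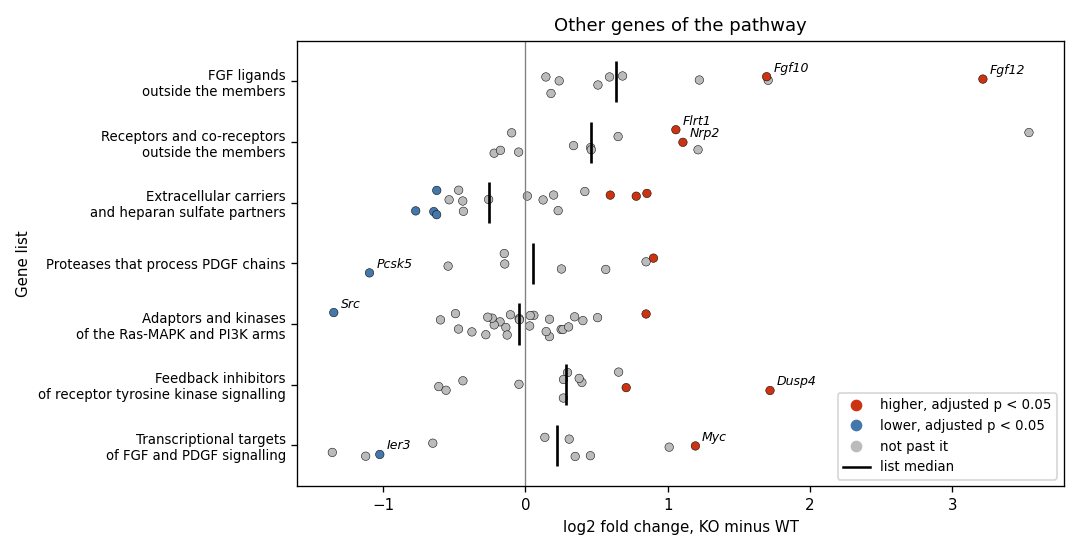
Log2 fold change of each tested gene in the 7 pathway lists, with genes past the test in red (higher) or blue (lower) and a bar at the list median. Medians run from -0.26 in the extracellular carriers to 0.64 in the FGF ligands, and called genes are named.

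The protein-coding genes whose pattern over the 6 libraries was most like that of each passing member were found among 11112 genes with a mean of at least 100 normalised counts. Likeness was the root mean square difference of log2 values, each gene set to 0 at its WT mean, so a smaller value is a closer match. For Pdgfrb they included Bak1 (0.0434) and Alpl (0.0508). Pdgfc was matched by Fgl2 (0.0296), Itgbl1 (0.0819) and Dsp (0.0892). For Pdgfa, with its wide spread in WT, they were Sertad1 (0.125), Vps37d (0.141) and Scand1 (0.151), and for Pdgfb Prr15 (0.118), Capn3 (0.135) and Ccdc3 (0.153). Of the matches named, Bak1, Alpl and Vps37d did not pass the test themselves (adjusted p 0.135, 0.147 and 0.0749 in DESeq2), and the others did. The matches were chosen on these same 6 libraries, KO included, so their passing follows in part from the choice.

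**Figure D5:**
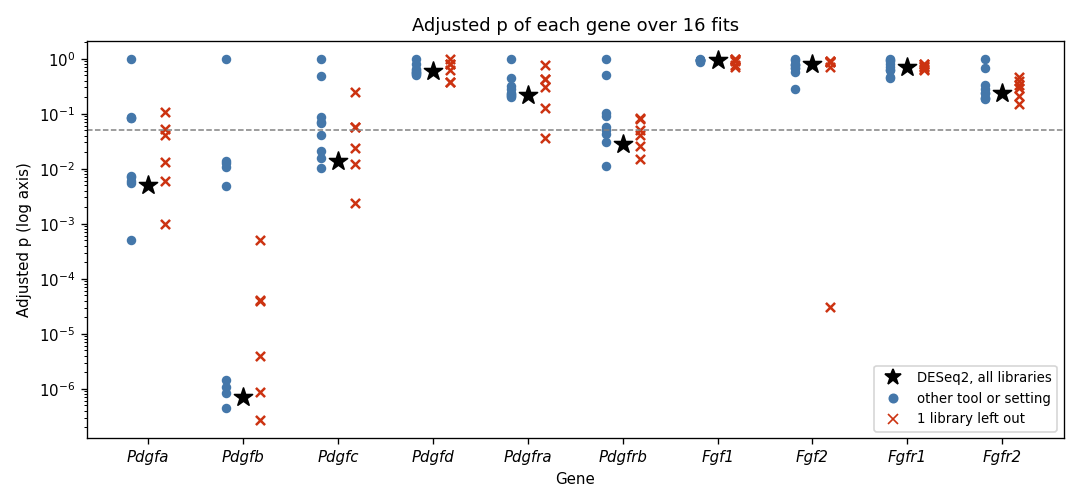
Adjusted p of each gene (log axis) in DESeq2 with all libraries (stars), in the other tools and settings (blue circles) and with 1 library left out (red crosses), with a dashed line at 0.05. Pdgfb stays below the line in 14 of 15 alternatives, Pdgfa in 9, Pdgfc in 7 and Pdgfrb in 6, and Fgf2 crosses it without KO-b only.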

How the data were processed

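Thoracic aorta RNA (RNeasy) was sequenced from 4 WT and 2 KO samples. The authors trimmed reads with Trim Galore, mapped them to GRCm38 with HISAT2 and used StringTie with GENCODE M15. They deposited an estimated count for each gene, a whole number not scaled for depth, and the conversion to whole numbers is not given in the sources used here. Columns carry codes in place of titles: the code with 4 columns was taken as WT and that with 2 as KO, and 0 columns were left unused. Every library differed from every other, and none was counted as a repeat.

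DESeq2 1.42.0 in R 4.3.3 compared KO with WT over all genes (Wald test, group as the only term, Benjamini-Hochberg adjustment). An adjusted p under 0.05 was passing, and with a change above 2-fold called, as in the study's methods. All p-values are two-sided. Positions, exon lengths and overlaps came from GENCODE M21 (GRCm38), matched by identifier without version for 52403 of 52636 genes. Single-library log2 values used a pseudocount of 0.5. Intervals are 95% (1.96 standard errors). Named genes were the 10 members, the targeted receptors, genes overlapping a member, the called genes of 7 pathway lists or, where a list had none, its smallest adjusted p, and the 3 best matches of each passing member, of which 1 for Pdgfrb is not reported here. Other genes were named after their values were seen. Alternatives were edgeR 4.0.16 (quasi-likelihood test, filtered by expression or not), limma-voom (limma 3.58.1), TMM or total-count scaling in DESeq2, a filter of 10 counts in 2 libraries, no independent filtering or outlier handling, a test against 2-fold, a replicate block, each library left out in turn and, for levels and shares, the longest transcript as length. Scripts were tested on simulated data. The members, lists and tests were chosen with earlier results of these data known.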

Additional observations from a re-analysis of the deposited data

Results flagged for a closer look

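In the WT group, 3 of 38 values checked had a library far from the other 3 by Dixon's gap test at the 95% level, where 1.9 would be flagged by chance. The KO group was too small for this check. In WT-d the share of Pdgfra in the PDGF receptor level was 11.2%, against 8.41%, 8.54% and 8.66% in the other WT libraries. In WT-d the share of Fgf1 in the level of both FGF ligands was 78.9%, against 51.5%, 54.5% and 55.3% in the others, and this was the WT library with the lowest Fgf2 count. The Src count of WT-a was 672, against 1688, 1709 and 1723 in the other WT libraries.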

How the results depend on the processing

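The 4 genes that passed became 1 in edgeR with or without its filter, 1 in limma-voom, 2 with a replicate block and 0 in the DESeq2 test against 2-fold, where 0 also had an unadjusted p under 0.05. Leaving out 1 WT library gave 2 to 4 of these same genes, all lower. Without KO-b the set of genes changed. The log2 fold changes of Pdgfc and Pdgfrb were then -0.53 and -0.45, and those of Fgf2 and Pdgfra -4.52 and 0.68. The 19 pathway list genes became 10 in edgeR, 8 in edgeR without a filter, 9 in limma-voom, 7 with the block and 0 against 2-fold, and 12 to 23 with 1 library left out. The split of 12 higher and 7 lower turned to 9 higher and 14 lower without KO-a, 4 and 5 in limma-voom and 3 and 4 with the block, and was 5 and 5 in edgeR. With 1 KO library left, that library is assumed to vary as WT does. Of 150 single-gene comparisons for the 10 genes, 121 kept direction and side of the threshold, 24 lost and 2 gained a call, and 3 changed sign. Those were Fgf1, at -0.0694 to 0.15 with 1 library left out, and Fgf2, at -4.52 to 0.20. The 19 passing list genes kept their sign throughout and lost a call in 91 of 281 comparisons. Whether the column numbers pair the libraries could not be decided. The correlation of deviations was -0.07 for the libraries numbered 1 and 0.02 for those numbered 2. With 2 KO libraries, the deviations of KO-a mirror those of KO-b, so such values cannot exclude a pairing. Under the replicate block Pdgfc (0.484) and Pdgfrb (0.502) lost their calls, and Pdgfa (0.000506) and Pdgfb (0.00483) kept theirs. The block is the column number, so WT-c and WT-d have no KO library in their block. They then add nothing to the group effect, and lost calls cannot be read as an effect of replicate. Per longest transcript, WT shares were 16.6% for Pdgfd, 12.8% for Pdgfra, 87.2% for Pdgfrb, 73.3% for Fgfr1 and 26.7% for Fgfr2, with the other shares within 1 SD. TMM or total-count scaling moved the median log2 fold change by 0.0029 and 0.0402. The causes of these differences were not tested.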
